A study of Danio rerio with 12 samples.

Results

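The genes described here encode transcription factors that set up and drive the skeletal muscle programme. They were taken by name, as the rows named myod1, myf5, myf6, myog, mef2ca, mef2d, six1b, eya1 and lbx1b. The names were chosen with earlier results of these data known, so counts of calls among them are descriptions. Each name matched 1 identifier, which gave 9 genes of 31051 in the count table, and all 9 were among the 18117 genes that passed the filter on low counts. Their RNA was measured by sequencing in pools of zebrafish embryos of the AB strain at the 10 somite stage, in 4 groups of 3 libraries. Every embryo had been injected with a morpholino (an antisense oligonucleotide that blocks translation or splicing of its target RNA) when it was a single cell. Controls were prdm1+/+ embryos with control-MO. The prdm1 mutants were prdm1-/- embryos with control-MO, the pbx2/4 morphants were prdm1+/+ embryos with pbx2/4-MO, and double embryos were prdm1-/- embryos with pbx2/4-MO. The labels do not name the prdm1 allele, and each library was made from RNA of single embryos that were genotyped and then pooled. prdm1a encodes a zinc-finger repressor that directs early muscle precursors to the slow fibre fate, and Pbx proteins are homeodomain partners of Hox and MyoD family proteins.

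In vertebrate muscle, the bHLH factors Myf5 and Myod1 commit cells of the somite to the muscle lineage, and Myogenin and Myf6 (also called Mrf4) act mainly in differentiation. They bind E-box sequences as dimers with E proteins, and Mef2 proteins, which are MADS-box factors, act with them on many sarcomere genes. Six-family homeodomain proteins with their Eya coactivators act upstream of the bHLH genes, and Lbx1 proteins mark migrating muscle precursors. In zebrafish embryos myod1 and myf5 are first transcribed in the adaxial cells beside the notochord, which become slow fibres. Several of the genes also have known expression outside muscle: six1b and eya1 in cranial placodes and the otic vesicle, lbx1 genes in dorsal hindbrain and spinal cord neurons, and mef2ca in heart and cranial neural crest derivatives.

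The libraries held 9059663 to 17236848 counts, so a single count was worth 0.0572 to 0.115 CPM (counts scaled to a common library size). By the way their columns are named, the libraries make up 3 sets of 4, written A, B and C, with every group represented once per set. Libraries of the same set deviated together from their group means. Per the study's design text the embryos came from separate rounds of egg collection and injection, but the labels do not say whether a set is such a round. Fold changes and adjusted p-values are from edgeR's quasi-likelihood test over all genes, without the set unless stated, and a gene was called at an adjusted p under 0.05. Values "with the block" are from the same test with the set as a term. Markers of skeletal muscle, notochord, neural plate and epidermis were present in all 12 libraries, for example actc1b at 79.5 to 192.6 CPM, ntla at 80.9 to 100.7 CPM, sox2 at 77.0 to 106.6 CPM and krt4 at 8814 to 11110 CPM. In whole embryos, fewer cells of a type and less RNA per cell cannot be told apart. Levels are given per gene and were not compared between genes, because they are not scaled to transcript length.

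myf6, at 8 to 15 counts per control library, was the gene of this group that edgeR called in prdm1 mutants. It was low in both groups that lacked prdm1. myog and lbx1b fell in pbx2/4 morphants and were also lower in double embryos than in prdm1 mutants. myod1 was higher, and eya1 lower, in the embryos with pbx2/4-MO. The fall of eya1 in double embryos against controls was called by edgeR without the block, edgeR with it and DESeq2. The other differences of both genes between groups with and without pbx2/4-MO were called by some of these methods and not by others. six1b had its lowest means in the groups without prdm1, although mutants overlapped morphants. Of these methods only edgeR with the block called six1b, in double embryos against controls. myf5, mef2ca and mef2d were called in none of the comparisons.

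**Figure D1:**
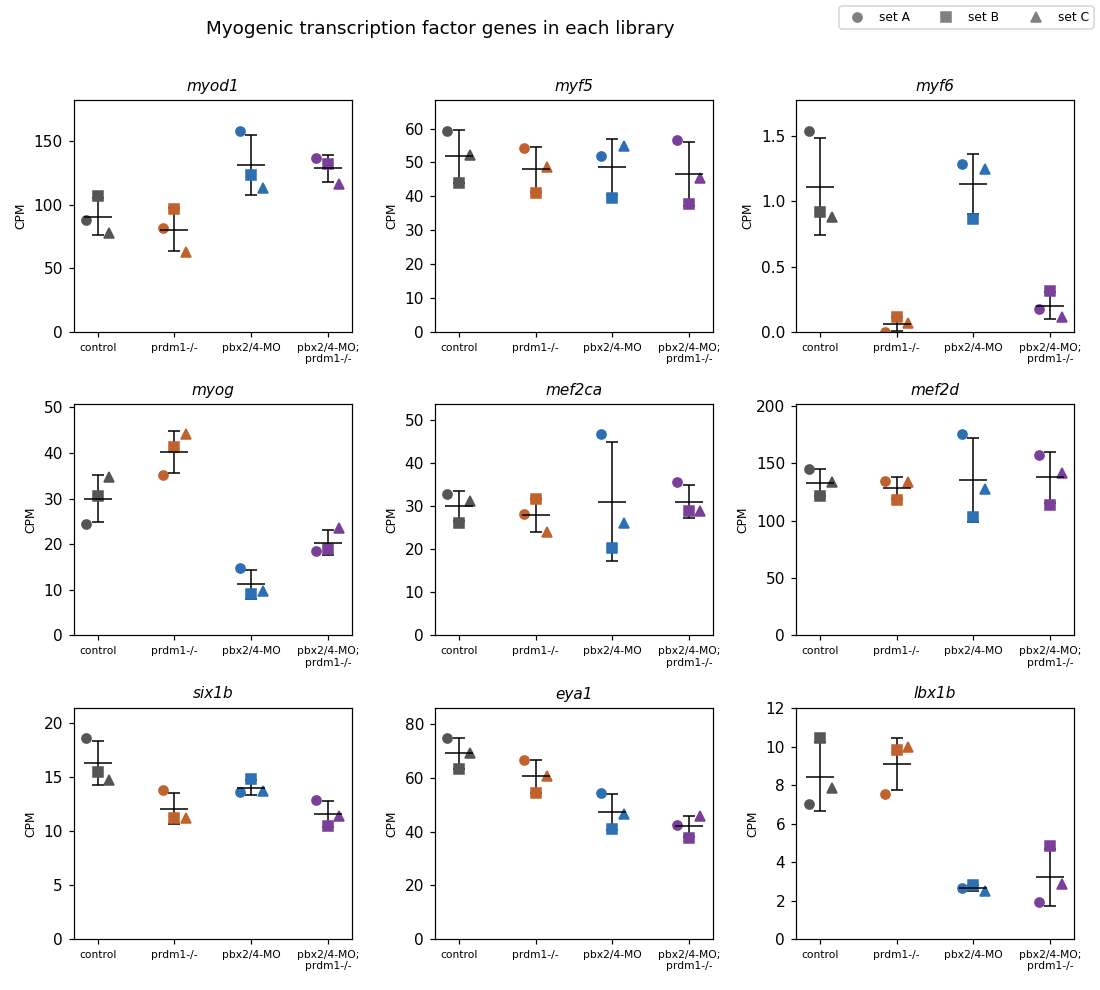
Level of each gene in CPM (vertical axis, from 0, a different scale in each panel) in the 4 groups. Symbols are single libraries with their shape giving the set, bars are the mean and SD of 3 libraries. myf6 lies at 0 to 0.315 CPM in the 6 prdm1-/- libraries and at 0.865 to 1.54 CPM in the 6 prdm1+/+ libraries, and lbx1b lies at 1.92 to 4.82 CPM in the 6 libraries with pbx2/4-MO and at 6.997 to 10.45 CPM in the other 6.

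Loss of prdm1 alone was measured by setting prdm1 mutants against controls. There 1 of the 9 genes fell and 0 rose, where 0.193% of all genes tested were called, and the same counts were found with the block (1.1% of all genes). The libraries of 1 gene lay wholly above the controls and of 2 genes wholly below, where 2.64% and 3.40% of all genes did so. The gene that fell was myf6 (ENSDARG00000029830), which encodes the bHLH factor Mrf4. It had 15, 8 and 14 counts in the controls of sets A, B and C, and 0, 1 and 1 in the mutants. In the mutant of set A the count of 0 allows up to 3 counts, or 0.241 CPM. The groups did not overlap, and mutants held few or no reads of this gene at a depth that gave controls at least 8. The level was 1.11 ± 0.372 CPM in controls (SD, n = 3) and 0.0592 ± 0.056 CPM in mutants, a fitted log2 fold change of -4.09 (SE 0.64, edgeR adjusted p = 0.0229, 0.00429 with the block). On the summed counts, 37 against 2, controls exceeded mutants 19.7-fold, with a 95% exact interval of 5.07 to 168 that covers counting error only. The call was lost without any single one of the 3 controls or 3 mutants, or without the pbx2/4 morphant of set C (adjusted p up to 0.167, log2 fold change -4.59 to -3.57). DESeq2 gave -4.32 with adjusted p = 0.0518. With only controls and mutants fitted, myf6 did not pass the filter on low counts. In the fit of all 4 groups it passed only through the prdm1+/+ groups, where it was high. The adjusted p-values of myf6 between prdm1+/+ and prdm1-/- libraries are therefore descriptions.

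With pbx2/4-MO, myf6 was again lower in the embryos that lacked prdm1. pbx2/4 morphants had 16, 9 and 21 counts, at 1.13 ± 0.233 CPM, which overlapped the controls (log2 fold change 0.05, SE 0.40, 95% interval -0.81 to 0.91, adjusted p = 0.983). Double embryos had 2, 3 and 2 counts, at 0.201 ± 0.103 CPM. All 3 double libraries were below every morphant and every control. Double embryos were lower than controls by a fitted log2 fold change of -2.50 (SE 0.51, edgeR adjusted p = 0.0253), and lower than morphants by -2.56 (SE 0.50), with adjusted p = 0.114 but 0.0153 with the block. On summed counts, 46 against 7, morphants exceeded double embryos 6.37-fold (95% exact interval 2.86 to 16.7). The call against controls was lost without control A or control C or the double library of set A or C (adjusted p up to 0.119, log2 fold change -2.90 to -2.16). With only controls and double embryos fitted, myf6 did not pass the filter on low counts. Between the low groups, double embryos had 7 counts and mutants 2, a ratio of 3.32 with a 95% exact interval of 0.632 to 32.7, and the fitted difference was not called (log2 fold change 1.59, adjusted p = 0.576). The 3 double libraries, at 0.114 to 0.3145 CPM, lay above the 3 mutants, at 0 to 0.111 CPM, by 3 counts or fewer. In the order of levels, morphants and controls overlapped, while morphants exceeded mutants with a log2 fold change of 4.15 (SE 0.62) and an edgeR adjusted p of 0.00404.

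myf6 lies next to myf5, with 0 protein-coding genes between them in the RefSeq gene order of assembly GRCz12tu, which is not the build of the counts. myf5 (ENSDARG00000007277), the other gene of the pair and an early commitment factor, did not share this pattern. It had 59.4, 43.9 and 52.1 CPM in the controls of sets A, B and C, 54.3, 41.1 and 48.5 in prdm1 mutants, 51.8, 39.4 and 54.8 in pbx2/4 morphants, and 56.5, 37.8 and 45.5 in double embryos. The 4 groups overlapped, and set B was lowest in each group. Its log2 fold changes against controls were -0.11 in mutants (95% interval -0.51 to 0.29), -0.09 in morphants (-0.48 to 0.31) and -0.15 in double embryos (-0.55 to 0.25), with adjusted p = 1, 0.929 and 0.833. With the block the intervals narrowed to -0.28 to 0.06, -0.25 to 0.08 and -0.32 to 0.01. Within a library, myf6 gave 1.69 to 2.6 counts per 100 myf5 counts in controls, 0 to 0.271 in mutants, 2.2 to 2.48 in morphants and 0.252 to 0.831 in double embryos. This ratio does not depend on the scaling between libraries, and in each of the 3 sets both prdm1-/- libraries lay below both prdm1+/+ libraries. It uses the same myf6 counts as above, over myf5 counts that differed little between groups, so it is not a separate result.

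In the same prdm1 mutants the slow myosin genes smyhc1, smyhc2 and smyhc3 fell and myl1 and mylz2, which encode fast muscle myosin light chains, rose. smyhc1 had 470 CPM in controls, 119.6 in mutants, 374 in morphants and 50.3 in double embryos, so it too was low in the prdm1-/- groups. myl1 had 5.90, 30.5, 2.86 and 17.9 CPM in the same order, opposite in direction to myf6. Their part in the myf6 result was not tested.

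myog (ENSDARG00000009438) encodes Myogenin, the bHLH factor of myoblasts entering differentiation. It had 24.5, 30.7 and 34.8 CPM in the controls of sets A, B and C, 35.1, 41.3 and 44.1 in prdm1 mutants, 14.9, 9.13 and 9.68 in pbx2/4 morphants and 18.6, 19.0 and 23.5 in double embryos. The 4 groups did not overlap at all, in the order mutants, controls, double embryos and morphants. The share of all genes whose 4 groups separate was not computed, so this order is a description. The same holds below where all libraries with pbx2/4-MO lie apart from all others. In set A the morphant was the highest of its group, and the control, mutant and double libraries were the lowest of theirs. The effect of pbx2/4-MO in prdm1+/+ embryos was measured between pbx2/4 morphants and controls, where 2 of the 9 genes, myog and lbx1b, fell and 0 rose (1.44% of all genes were called). With the block 3 were lower and 1 higher (17.7% of all genes). Without overlap, 1 gene lay above the controls and 3 below (7.72% and 8.50% of all genes). myog fell from 29.97 ± 5.17 to 11.2 ± 3.17 CPM (SD, n = 3 each), a log2 fold change of -1.42 (SE 0.20, edgeR adjusted p = 0.00567, 0.000103 with the block). This call remained without any single library, with log2 fold changes of -1.67 to -1.30 and adjusted p up to 0.038. It was lost without any one of the 3 sets, which leaves 2 libraries a group (adjusted p up to 0.365). Its fall was -0.70, -1.69 and -1.79 on the log2(CPM + 0.5) scale within sets A, B and C.

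The neighbouring steps in the order of myog levels were smaller. Mutants (40.2 ± 4.60 CPM) had a log2 difference of 0.42 from controls (SE 0.20, 95% interval -0.01 to 0.85; adjusted p = 1, 0.375 with the block), although the groups did not overlap. The differences within the sets were 0.51, 0.42 and 0.34. Double embryos (20.3 ± 2.72 CPM) had -0.56 against controls (SE 0.20, adjusted p = 0.213, 0.0246 with the block) and 0.86 against morphants (SE 0.20, adjusted p = 0.3, 0.0249 with the block and 0.0333 by DESeq2). Double embryos were lower than prdm1 mutants (log2 fold change -0.98, SE 0.20, adjusted p = 0.0324), with -0.90, -1.1 and -0.90 within the sets. That call was lost without any single mutant library or without the double library of set A or B (adjusted p up to 0.149, log2 fold change -1.11 to -0.91). myog thus had a higher mean without prdm1 and a lower mean with pbx2/4-MO, in each level of the other factor. The interaction, the effect of prdm1 loss in morphants minus that in controls, was 0.44 (SE 0.28, 95% interval -0.17 to 1.05, adjusted p = 1). With the block it was 0.44 (SE 0.23, 95% interval -0.05 to 0.94), also not called.

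myod1 (ENSDARG00000030110), which encodes the commitment factor Myod1, stood the other way from myog in embryos with pbx2/4-MO. It had 88.1, 106.6 and 77.6 CPM in controls, 81.6, 96.6 and 63.1 in prdm1 mutants, 158.4, 123.1 and 113.6 in morphants and 137.1, 132.4 and 116.3 in double embryos, in sets A, B and C. All 6 libraries with pbx2/4-MO lay above all 6 without it, while mutants overlapped controls and double embryos overlapped morphants. Against controls, morphants had 0.54 on the log2 scale (SE 0.18, adjusted p = 0.213, 0.00234 with the block) and double embryos 0.50 (SE 0.18, adjusted p = 0.212, 0.00298 with the block). Double embryos had 0.68 against prdm1 mutants (SE 0.18, adjusted p = 0.098, 0.000427 with the block). DESeq2, without the block, called the difference between double embryos and mutants (adjusted p = 0.0214) and not those against controls (0.117 in morphants and 0.144 in double embryos). Within the sets the difference between morphants and controls was 0.84, 0.21 and 0.55, so the spread between sets was wide. Loss of prdm1 gave -0.17 with control-MO (95% interval -0.56 to 0.21, adjusted p = 1) and -0.03 with pbx2/4-MO (-0.42 to 0.35, adjusted p = 1). Of the 12 myod1 counts 3 were not whole numbers (tolerance 1e-06), and how such reads were divided between features is not stated.

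The 2 genes gave a within-library ratio that parted the libraries with pbx2/4-MO from those without it. There were 27.8, 28.7 and 44.8 myog counts per 100 myod1 counts in the controls of sets A, B and C. The ratio was 43.1, 42.7 and 69.9 in prdm1 mutants, 9.39, 7.42 and 8.52 in pbx2/4 morphants, and 13.5, 14.3 and 20.2 in double embryos. In every set the order was mutants, controls, double embryos, morphants, although controls and mutants overlapped across sets. The group means were 51.9 ± 15.6, 33.8 ± 9.57, 16.0 ± 3.66 and 8.44 ± 0.987 (SD, n = 3). The values describe these libraries, and no p-value was attached to the ratio because the pair was picked after the values of both genes were known.

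**Figure D2:**
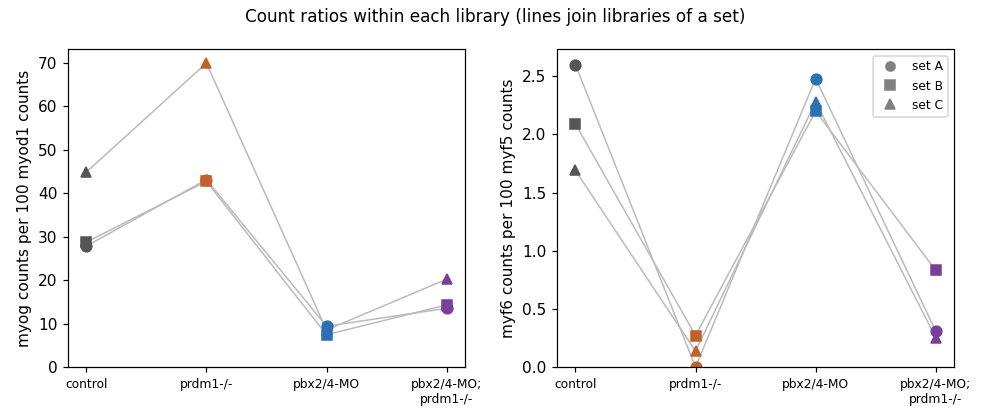
Counts of myog per 100 counts of myod1 (left) and of myf6 per 100 counts of myf5 (right) in each library, with grey lines joining the libraries of a set across the 4 groups. The left ratio is at most 20.2 in the 6 libraries with pbx2/4-MO and at least 27.8 in the other 6, and the right ratio is at most 0.831 in the 6 prdm1-/- libraries and at least 1.69 in the other 6.

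lbx1b (ENSDARG00000018611) encodes a homeodomain factor related to Lbx1 of migrating muscle precursors and dorsal neurons. It had 6.997, 10.45 and 7.87 CPM in controls, 7.56, 9.80 and 9.96 in prdm1 mutants, 2.65, 2.79 and 2.49 in pbx2/4 morphants and 1.92, 4.82 and 2.86 in double embryos. The libraries with pbx2/4-MO were all below those without, and the double library of set B was the highest of them. lbx1b fell in morphants by a log2 fold change of -1.67 (SE 0.29, edgeR adjusted p = 0.015), and was lower in double embryos than in controls by -1.41 (SE 0.29, adjusted p = 0.0255) and than in prdm1 mutants by -1.52 (SE 0.29, adjusted p = 0.0224). Within the sets the difference between morphants and controls was -1.25, -1.74 and -1.48. Mutants differed from controls by 0.11 (95% interval -0.48 to 0.71, adjusted p = 1), and double embryos from morphants by 0.26 (-0.40 to 0.92, adjusted p = 1).

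DESeq2, without the block, called lbx1b in the same 3 comparisons (adjusted p = 2.01e-05, 0.00041 and 8.85e-05). In edgeR without the block, the call in morphants was lost without the control of set B or C or any single morphant (adjusted p up to 0.0773, log2 fold change -1.79 to -1.50). The call of double embryos against controls was lost without the control of set B or C or the double library of set A or C (adjusted p up to 0.0927, log2 fold change -1.79 to -1.16), and with only the groups of the comparison fitted (adjusted p = 0.109). The call against mutants was lost without any single mutant or the double library of set A or C (adjusted p up to 0.109, log2 fold change -1.91 to -1.27), and with only those groups fitted (adjusted p = 0.106).

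Some markers of another site of lbx1 expression moved in the same libraries. Of 10 tested markers of dorsal spinal cord and hindbrain interneurons, 3 fell and 0 rose in pbx2/4 morphants (6 and 0 with the block), with a median log2 fold change of -0.68 where that of all genes was 0.01. Among all genes edgeR called 1.44% there, and 17.7% with the block. The 12 markers found summed to 118.9 to 124.5 CPM in controls, 112.7 to 129.7 in prdm1 mutants, 70.9 to 81.1 in morphants and 76.1 to 83.8 in double embryos, and 1 of the 12 was at 0 in all morphant libraries. A large part of these sums and of their fall was pax2a, at 62.97 CPM in controls and 40.0 in morphants, which is not only an interneuron gene. dbx1b, a homeobox gene of neural progenitors, fell from 14.3 to 5.20 CPM, and gsx1, another such gene, from 3.67 to 0.570 CPM. tlx3b, of the same list, was low without prdm1 instead. It had 2.99 CPM in controls, 1.198 in mutants, 2.41 in morphants and 0.797 in double embryos. edgeR with the block called tlx3b in mutants against controls (adjusted p = 0.0369) and in double embryos against morphants (adjusted p = 0.0158), and not in morphants against controls. The part of these markers in the lbx1b result was not tested. lbx2, a related gene expressed in somites and fin muscle precursors, had 12.6 CPM in controls, 14.9 in mutants, 15.3 in morphants and 17.9 in double embryos (log2 fold change in double embryos 0.50, adjusted p = 0.0719, 0.00309 with the block).

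eya1 (ENSDARG00000014259) encodes a coactivator and phosphatase that binds Six-family proteins. It had 75.0, 63.5 and 69.4 CPM in controls, 66.8, 54.6 and 60.8 in prdm1 mutants, 54.5, 40.9 and 46.8 in pbx2/4 morphants and 42.4, 37.8 and 45.7 in double embryos. Every library with pbx2/4-MO was below every library without it, but the morphant of set A (54.5 CPM) and the mutant of set B (54.55 CPM) almost met. Between double embryos and controls, which differ in both prdm1 and pbx2/4-MO, 3 of the 9 genes fell, myf6, eya1 and lbx1b, and 0 rose (2.25% of all genes were called). With the block 6 of the 9 were called, 5 lower and 1 higher (20.2% of all genes). Without overlap, 1 gene lay above the controls and 5 below (8.46% and 8.92% of all genes). eya1 fell in double embryos by a log2 fold change of -0.72 (SE 0.14, adjusted p = 0.0156), with -0.82, -0.74 and -0.60 within the sets. In morphants it had -0.55 (SE 0.14, adjusted p = 0.0762, 0.000157 with the block) and in double embryos against mutants -0.53 (SE 0.14, adjusted p = 0.0882, 0.000263 with the block). DESeq2, without the block, called both of these differences (adjusted p = 0.0104 and 0.0131). The mutants had -0.19 against controls (95% interval -0.48 to 0.10, adjusted p = 1), with -0.17, -0.22 and -0.19 within the sets. With the block this interval was -0.34 to -0.04, not called (adjusted p = 0.38). Double embryos had -0.17 against morphants, with a blocked interval of -0.32 to -0.01, also not called (adjusted p = 0.541). The call in double embryos was lost without control A or control C or the double library of set A or B (adjusted p up to 0.0749, log2 fold change -0.79 to -0.65).

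six1b (ENSDARG00000026473) encodes a Six-family homeodomain factor, the partner of Eya proteins. It had 18.6, 15.5 and 14.7 CPM in controls, 13.8, 11.2 and 11.2 in prdm1 mutants, 13.6, 14.8 and 13.7 in pbx2/4 morphants and 12.9, 10.5 and 11.4 in double embryos. Both prdm1-/- groups lay below the controls, and morphants overlapped controls. Mutants had -0.43 on the log2 scale (SE 0.15, 95% interval -0.76 to -0.10, adjusted p = 1, 0.1 with the block), with -0.43, -0.45 and -0.38 within the sets. Double embryos had -0.49 against controls (SE 0.15, adjusted p = 0.138, 0.00747 with the block) and -0.27 against morphants (SE 0.15, adjusted p = 1). Morphants had -0.22 against controls (95% interval -0.54 to 0.11, adjusted p = 0.667), and double embryos -0.06 against mutants (-0.39 to 0.27, adjusted p = 0.962). The ratio of eya1 to six1b counts was 403 to 471 per 100 in controls, 485 to 542 in mutants, 276 to 401 in morphants and 329 to 402 in double embryos.

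Some placode markers moved with these libraries too. Of 12 tested markers of the otic vesicle and placodes, 3 fell and 0 rose in pbx2/4 morphants and 2 fell and 0 rose in double embryos (6 lower and 1 higher, and 10 lower and 1 higher, with the block). Among all genes edgeR called 1.44% in morphants and 2.25% in double embryos, and 17.7% and 20.2% with the block. The 13 markers found summed to 445.2 to 461.8 CPM in controls, 414.6 to 449.9 in prdm1 mutants, 328.1 to 368.3 in morphants and 306.2 to 371.6 in double embryos, and 0 of the 13 were at 0 in all libraries of a group. pax2a, a paired-box gene of the otic placode, hindbrain border and neurons, fell from 62.97 to 40.0 CPM in morphants. It was also counted among the interneuron markers that fell, so the lists are not separate. sox3, also a neural plate marker here, had 207.4 CPM in controls and 138.5 in morphants, a large part of the sums. foxi1 went the other way, from 17.7 to 22.3 CPM, and dlx3b had 67.1 and 65.8 CPM. In prdm1 mutants 0 of the 12 were called with or without the block or by DESeq2. There 3 were lower at an unadjusted p under 0.05 in edgeR, as against 2.65% of all genes in either direction. The part of the placode markers in the eya1 and six1b results was not tested.

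mef2ca (ENSDARG00000029764) and mef2d (ENSDARG00000040237), MADS-box genes of muscle differentiation, were not called in any comparison. mef2ca had 32.9, 26.1 and 31.2 CPM in controls, 28.2, 31.6 and 23.96 in prdm1 mutants, 46.7, 20.3 and 26.2 in pbx2/4 morphants and 35.5, 28.8 and 28.8 in double embryos. mef2d had 144.5, 121.1 and 133.7 CPM in controls, 134.2, 117.6 and 133.5 in mutants, 175.1, 103.4 and 127.8 in morphants and 157.2, 113.9 and 141.5 in double embryos. For both genes the groups overlapped, and the morphant of set A was the highest and that of set B the lowest of the 12 libraries. The log2 fold change of mef2ca against controls was -0.11 in mutants (95% interval -0.66 to 0.44), 0.05 in morphants (-0.50 to 0.59) and 0.05 in double embryos (-0.50 to 0.59). That of mef2d was -0.05 (-0.44 to 0.34), 0.03 (-0.36 to 0.41) and 0.05 (-0.34 to 0.44). With the block the widest of the mef2d intervals was -0.24 to 0.14. Without the morphant of set A the difference between morphants and controls turned to -0.37 for mef2ca and -0.20 for mef2d, neither of them called (adjusted p = 0.49 and 0.7). Of 8 tested markers of the heart field, where mef2ca is also expressed, 1 rose and 3 fell in morphants and 1 rose and 4 fell in double embryos, and the 10 found summed to 136.4 to 162.6 CPM in controls, 124.9 to 161.5 in mutants, 148.5 to 184.9 in morphants and 147.8 to 167.0 in double embryos. Of 5 neural crest markers and 3 head muscle progenitor markers, 0 were called in any of the 3 comparisons with controls by edgeR (with the block 2 neural crest markers were lower in mutants, 0 were called in morphants and 3 were lower in double embryos, and 1 head muscle marker was lower in morphants; DESeq2 called 2 neural crest markers in double embryos, and 0 to 3 of the 5 and 0 to 1 of the 3 had an unadjusted p under 0.05). Among all genes edgeR called 0.193%, 1.44% and 2.25% in mutants, morphants and double embryos, and 1.1%, 17.7% and 20.2% with the block. At an unadjusted p under 0.05 in edgeR the shares of all genes were 2.65%, 12% and 13.6%. Of the 12 mef2d counts 6 were not whole.

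**Figure D3:**
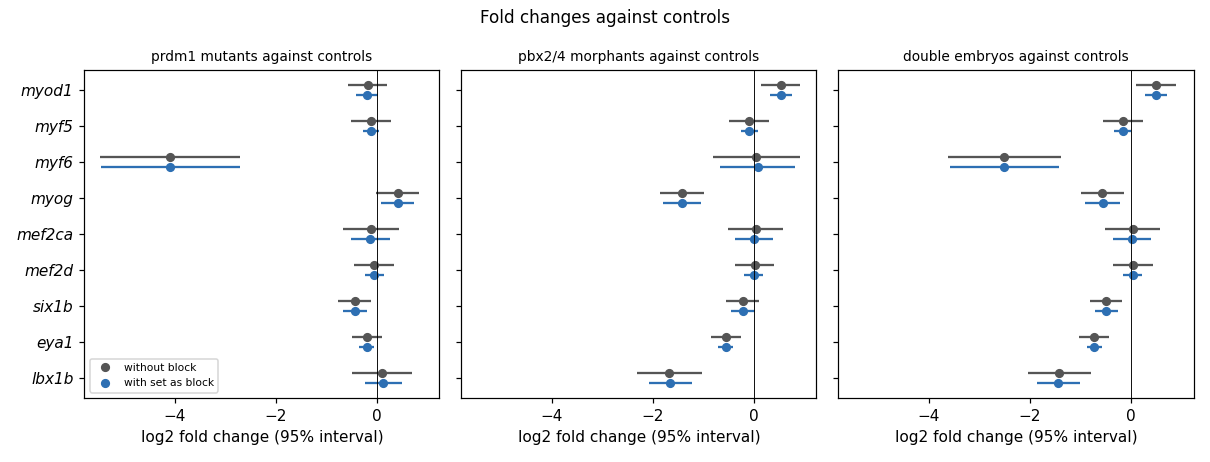
Log2 fold change against controls (horizontal axis) of the 9 genes in prdm1 mutants, pbx2/4 morphants and double embryos, from edgeR without the block (grey) and with the set as a block (blue). Points are estimates from 3 libraries a group and lines are 95% intervals. myf6 is at -4.09 in mutants and -2.50 in double embryos and near 0 in morphants, while myog and lbx1b are at -1.42 and -1.67 in morphants.

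Direct tests between prdm1 mutants and pbx2/4 morphants separated the response of several genes. Of the 9 genes, 2 were lower in morphants than in mutants and 1 was higher (2.64% of all genes called), against 3 and 2 with the block (21.5% of all genes). The higher gene was myf6, whose adjusted p-values between prdm1+/+ and prdm1-/- libraries, as here, are descriptions because of the filter. myog was lower in morphants, with a log2 fold change of -1.84 (SE 0.21, edgeR adjusted p = 0.000749), and so was lbx1b, with -1.78 (SE 0.29, adjusted p = 0.00683). These 3 calls held without any single library (adjusted p up to 0.034, 0.00587 and 0.0413 for myf6, myog and lbx1b). With a whole set left out, the myf6 and lbx1b calls were lost without set A or C (adjusted p up to 0.245 and 0.328) and the myog call without set C (0.142). myod1 was higher in morphants by 0.71 (SE 0.18, adjusted p = 0.0588, 0.000223 with the block and 0.00884 by DESeq2), and eya1 had -0.36 (SE 0.14, adjusted p = 0.231, 0.00261 with the block).

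The remaining pair of comparisons measured each loss in the presence of the other. Adding pbx2/4-MO to prdm1 mutants lowered 2 of the 9 genes, myog and lbx1b, and raised 0 (1.36% of all genes called), against 3 lower and 1 higher with the block (16.2%). Without overlap, 2 genes lay above the mutants and 3 below (7.68% and 7.99% of all genes). Removing prdm1 from morphants gave 0 calls among the 9 (0.149% of all genes). At an unadjusted p under 0.05 in edgeR, 1 was higher and 1 lower (2.71% of all genes). DESeq2 called 1, which was myog at 0.86 with adjusted p = 0.0333. With the block 1 was higher and 1 lower (1.20%), myog and myf6. Without overlap, 1 gene lay above the morphants and 2 below (2.53% and 2.60% of all genes). The effect of pbx2/4-MO in prdm1+/+ and in prdm1-/- embryos, which share no library, was -1.67 and -1.52 for lbx1b, -1.42 and -0.98 for myog, -0.55 and -0.53 for eya1, and 0.54 and 0.68 for myod1. The interaction called 0 of the 9 genes in edgeR and in DESeq2, with 0 at an unadjusted p under 0.05. It called 0 of 18117 genes (0.00%) in both tools, with 103 (0.569%) at an unadjusted p under 0.05 in edgeR. With the block edgeR called 0 as well. The fits without the block leave the differences between sets in their spread, and 0 calls do not show that the effects add. The interaction of myf6 was 1.54 (SE 0.91, 95% interval -0.43 to 3.50), an interval too wide at this depth to place it.

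**Figure D4:**
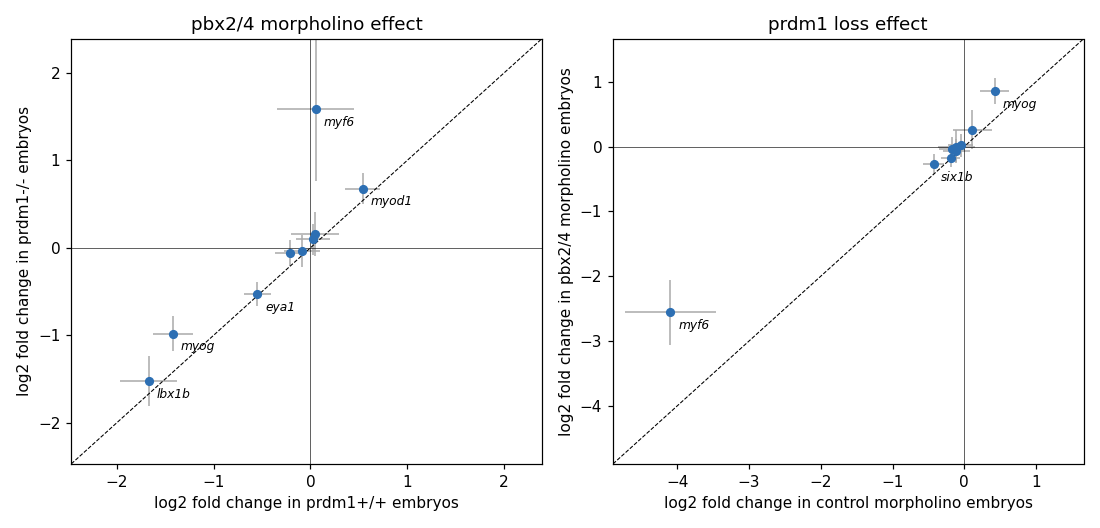
Log2 fold change of each gene for pbx2/4-MO in prdm1+/+ (horizontal) and prdm1-/- embryos (vertical, left panel), and for loss of prdm1 with control-MO (horizontal) and pbx2/4-MO (vertical, right panel). Points are edgeR estimates without the block, bars are 1 SE and the dashed line marks equal effects. lbx1b, myog, eya1 and myod1 have the same sign in both genotypes, and myf6 lies at -4.09 and -2.56 in the right panel.

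Of 12 bHLH partners and inhibitors tested, 0 were called in prdm1 mutants by edgeR or DESeq2 (0 at an unadjusted p under 0.05), and 1 fell in double embryos (1 higher and 3 lower with the block). The 1 called without the block was twist3, a bHLH gene of the Twist family, at 1.46 CPM in controls and 0.314 in double embryos, with an adjusted p of 0.0235 (log2 fold change -2.12, SE 0.43). Over the list the median log2 fold change came to -0.06 in mutants, -0.15 in morphants and -0.07 in double embryos, where all genes had 0.00, 0.01 and 0.01. Of 12 Mef2 relatives and myogenic cofactors, 2 fell in double embryos (1 higher and 4 lower with the block). The 2 called without the block were smyd1b, which encodes a methyltransferase and myosin chaperone of muscle, from 37.4 to 21.3 CPM, with an adjusted p of 0.0307 (log2 fold change -0.81, SE 0.17), and its paralog smyd1a, from 1.12 to 0.150 CPM (-2.78, SE 0.56). The list's median was 0.03 there. Among all genes edgeR called 2.25% in double embryos (20.2% with the block) and 0.193% in mutants, where 2.65% had an unadjusted p under 0.05.

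Of 20 relatives from the Six-family, Eya, Dach, Pax and Lbx groups, 0 were called in double embryos by edgeR (2 higher and 2 lower at an unadjusted p under 0.05, 2 by DESeq2, 2 higher and 3 lower with the block), and the median was -0.17. Of 14 genes of presomitic and somite patterning, 0 were called in double embryos (2 and 2 at an unadjusted p under 0.05, 1 by DESeq2, 4 higher and 2 lower with the block), and the median was 0.15. Of the 5 lists, muscle differentiation genes held the most calls. Of 37 tested, 2 rose and 5 fell in prdm1 mutants, 1 rose and 6 fell in pbx2/4 morphants, and 3 rose and 12 fell in double embryos, with medians of -0.17, -0.28 and -0.20. With the block the counts were 4 and 6, 4 and 13, and 6 and 14. Among all genes edgeR called 0.193%, 1.44% and 2.25% in mutants, morphants and double embryos, and 1.1%, 17.7% and 20.2% with the block. In double embryos 13.6% of all genes had an unadjusted p under 0.05 in edgeR, and DESeq2 called 740 genes.

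Among these differentiation genes, some followed the levels of myog and others did not. acta1b, a skeletal actin gene, had 63.0 CPM in controls, 51.3 in mutants, 19.3 in morphants and 19.4 in double embryos, and chrna1, an acetylcholine receptor gene of the muscle endplate, had 14.5, 13.7, 5.60 and 4.104 CPM. Both were low with pbx2/4-MO in either genotype. atp2a1, the fast muscle calcium pump gene, had 19.7, 46.7, 4.84 and 18.1 CPM. Its group means had the same order as those of myog, but controls and double embryos (SD 6.1 and 5.7 CPM) were not called different. It rose from morphants to double embryos, with an adjusted p of 0.0127 (log2 fold change 1.92, SE 0.27), and was lower in double embryos than in mutants (-1.36, SE 0.25, adjusted p = 0.0206). musk, a receptor kinase gene of the neuromuscular junction, rose in morphants from 15.9 to 24.1 CPM (log2 fold change 0.61, adjusted p = 0.0391), opposite to chrna1. tmem8c, which encodes the myoblast fusion protein Myomaker, had 1.80 CPM in controls, 6.02 in mutants, 3.66 in morphants and 7.55 in double embryos. It rose in double embryos with an edgeR adjusted p of 0.00625 (log2 fold change 2.09, SE 0.33). In mutants its log2 fold change was 1.75 (SE 0.33, adjusted p = 0.0828, 0.00429 with the block), and in morphants 1.05 (SE 0.34, adjusted p = 0.193, 0.023 with the block). unc45b, a myosin chaperone gene, rose in double embryos from 207.1 to 324 CPM, with an adjusted p of 0.00395 (log2 fold change 0.65, SE 0.10).

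The genes whose pattern was most like each member were found by Pearson correlation of log2 CPM over the 12 libraries, after the mean of the set was subtracted, among 12253 genes with a mean of at least 5 CPM. The 12 libraries share 4 groups and the subtraction, so the values are descriptions. For lbx1b these were dbx1b (r = 0.99), haus3 (r = 0.987) and hoxa3a (r = 0.987), a Hox gene of the hindbrain. For myog they were si:ch211-86h15.3 (r = 0.995), SVIL (2 of 2), named for supervillin (r = 0.985), and nup107 (r = 0.98). For eya1 they were zgc:194210 (r = 0.99), tmeff1 (r = 0.978) and zgc:101606 (r = 0.977), and for myod1 RNF14 (5 of 5) (r = 0.977), si:dkey-21o19.8 (r = 0.976) and bmp3 (r = 0.975). For six1b they were RBMS2 (1 of 2) (r = 0.935), xbp1 (r = 0.925) and sidt2 (r = 0.924). The best match was rtn3 for myf5 (r = 0.911), etv2 for mef2ca (r = 0.94) and ZBTB42 for mef2d (r = 0.899). myf6, at a mean under 1 CPM, was not matched. Within the group itself, eya1 and lbx1b had r = 0.9, myog and lbx1b 0.874, mef2ca and mef2d 0.83, and myod1 and lbx1b -0.895.

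In the authors' deposited tables of 3 comparisons with controls, each of the 9 genes had the direction found here once the sign was turned, since the deposited values run from the treated group to control. These tables are of the same series and had r = -0.996 to -0.993 with the values here over 18059 genes. The shared directions are therefore not an independent check. In the authors' deposited table for prdm1 mutants myf6 had a log fold change of 4.13 (unadjusted p = 7.9e-07). In the authors' deposited table for pbx2/4 morphants myog had 1.47 (unadjusted p = 2.24e-09), lbx1b 1.66 (5.2e-07), eya1 0.55 (0.00556) and myod1 -0.56 (0.0111).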

How the data were processed

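The authors deposited a table of estimated counts per gene for 12 libraries, not normalised, with 31051 identifiers and a gene name beside each. Of its values 13.7% were not whole (tolerance 1e-06). Plain counts had been planned for, so the values were rounded to whole numbers and the planned test was kept. The submitters' processing notes list TopHat 1.4, edgeR and the Zv9 build. The sources used here state neither the counting method nor its annotation or strand setting, and reads of overlapping or antisense genes may be mixed. Per the file headers, the authors' other tables hold a log fold change and an unadjusted p-value for each gene in 3 comparisons. These deposited log fold changes were made by the authors before deposit and are on the log2 scale since regressing them on the values computed here gave slopes of -1.01 to -1, with the sign reversed.

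The columns could be tied to groups but not to numbered replicates. The block was the set (3 sets) that the form of the column name gives. Deviations from group means correlated at 0.45 to 0.67 in 18 pairs of libraries within sets and at -0.48 to -0.03 in 36 pairs across sets. The sets therefore paired the libraries, by their names and values. No label ties a set to a round of injection, so what the sets stand for is not known.

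All 12 libraries were fitted in a model of the 4 groups with edgeR 4.0.16 in R 4.3.3 (TMM scaling, filterByExpr by group, quasi-likelihood F test, 8 residual degrees of freedom), and p-values were adjusted over the 18117 genes tested by the Benjamini-Hochberg method. The script was checked on simulated data. SE is the absolute log2 fold change over the square root of F, and 95% intervals use the t distribution with the fitted degrees of freedom. Levels are CPM on TMM-scaled library sizes, with the SD over 3 libraries. Values within sets are differences of log2(CPM + 0.5). edgeR's common biological coefficient of variation fell from 0.212 to 0.0754 when the block was added. Exact intervals on summed counts cover counting error only. DESeq2 1.42.0, other scaling, filters and left-out libraries were the alternatives.

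The genes, the lists of related genes and the markers were chosen with earlier results of these data known, so their counts are descriptions. Named genes were all 9 members, up to 4 called genes of smallest p per list and comparison, and for each member with a mean of at least 1 CPM the 3 best matched genes. Named outside that rule, after their values were seen, were lbx2, and tlx3b, atp2a1, musk, tmem8c and unc45b in some comparisons. Sequences were not used here.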

Additional observations from a re-analysis of the deposited data

How the results depend on the processing

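With the replicate block, 4, 6, 2, 4 and 5 members were called in pbx2/4 morphants against controls, double embryos against controls, against pbx2/4 morphants and against prdm1 mutants, and morphants against mutants, where the fit without it called 2, 3, 0, 2 and 3. List genes called with the block were 35, 40, 30 and 39 in those comparisons other than double embryos against morphants, where without it they were 7, 18, 8 and 11. The count over all genes went from 35 to 199 in prdm1 mutants, 260 to 3203 in morphants, 407 to 3655 in double embryos, 27 to 218, 247 to 2935 and 479 to 3901 in the other comparisons. The 11 member calls made without the block were also made with it. DESeq2 called 0 members in prdm1 mutants, 1 in double embryos against morphants and 4 against mutants, and 12, 14 and 17 list genes in morphants against controls, double embryos against mutants and morphants against mutants. It called 65, 559, 740, 65, 571 and 826 of all genes. With only the groups of the comparison, 0 members and 4 list genes were called in prdm1 mutants, and 1 member in double embryos against controls. myf6 did not pass the filter in either of these fits. Double embryos had 4 list genes called against morphants, and 1 member and 4 list genes against mutants. All-gene counts were then 18, 120, 205, 15, 95 and 193. No such fit exists for the interaction, which needs all groups.

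With single libraries or whole sets left out, members called ranged from 0 to 1 in mutants, 0 to 2 in morphants, 0 to 3 in double embryos, 0 to 2 for double embryos against mutants, stayed at 0 for double embryos against morphants and for the interaction, and ranged from 0 to 4 for morphants against mutants. List genes called ranged from 0 to 8, 0 to 6, 0 to 19, 0 to 7 (against morphants), 0 to 9 (against mutants) and 2 to 12. Of the 915 alternative values of 46 member results, 29 changed sign, and 0 of these were called before or after. Each of the 11 member calls was lost without at least 1 of the 3 sets, which leaves fewer samples, and none of them changed sign in the alternatives run.

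The log2 fold changes that changed sign did so with libraries or sets left out. They ranged from -0.30 to 0.0167 for mef2ca, -0.11 to 0.0111 for mef2d and -0.0127 to 0.29 for lbx1b in prdm1 mutants. In pbx2/4 morphants they ranged from -0.19 to 0.0410 for myf5, -0.19 to 0.34 for myf6, -0.37 to 0.27 for mef2ca and -0.20 to 0.18 for mef2d. In double embryos against controls they ranged from -0.0619 to 0.12 for mef2ca and -0.0586 to 0.17 for mef2d. Double embryos ranged from -0.14 to 0.0448 against mutants for six1b, and against morphants from -0.13 to 0.12 for myod1 and -0.12 to 0.52 for lbx1b.

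Counts of 8 to 15 per control library limit what can be said of myf6.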
